A study of Mus musculus with 6 samples.

Results

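The genes described here encode 8 complement proteins known to be made by stromal cells: C1ra, C1s1, Serping1, C4b, C3, Cfb, Cd55 and Cd59a. They were taken by gene name from a count table of 25491 genes. Each name stood once in the table, and all 8 passed the filter on low counts. Complement is a cascade of plasma and membrane proteins that marks surfaces for uptake, draws leukocytes and forms pores in membranes. Its classical arm starts when C1q binds a target and its partner proteases C1r and C1s cleave C4 and C2, and every arm meets at C3. The liver makes most circulating complement, while fibroblasts and other mesenchymal cells make several components locally.

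RNA was sequenced from mesenchymal progenitor cells (MPCs) freshly sorted from bone marrow as CD45- TER119- CD31- CD44- CD51+ SCA1-, that is, without the surface proteins of blood and endothelial cells and with integrin alpha V. The mice studied were Lama4-/-, which lack laminin alpha 4, a chain of the laminins of vascular and marrow basement membranes, and the mice they were set against were wild type. All mice were C57BL/6J, 14 weeks old, and sampled 6 weeks after sublethal irradiation with 7 Gy, so no library came from unirradiated marrow. The design text names 3 mice of each genotype and the table holds 3 libraries of each, but no label ties a library to a mouse, and p-values therefore describe no more than the spread among these 6 libraries, which may be technical. The labels do not say in which cells the Lama4-/- allele is deleted or from how many founders it came, and they name a pair of sequencers without saying which library ran on which. Sex is not given.

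Lama4 was counted 0 times in each Lama4-/- library, which allows up to 0.226 CPM (the usual library-scaled read count, here also adjusted for library composition), against 607, 236 and 438 counts in wild type replicates 1, 2 and 3. Library totals were 12979711 to 15663957 counts in Lama4-/- MPCs and 6263830 to 13409177 counts in wild type MPCs, with wild type replicate 2 the shallowest. Fold changes of Lama4-/- over wild type ran with transcript length across all genes, with a median log2 fold change of 0.34 in the shortest decile of tested genes and -0.92 in the longest decile. Marrow stroma markers were counted in every library, at levels that differed by marker, from 44.1 to 76834 CPM. Cxcl12, a chemokine of marrow stroma, stood at 5735, 6095 and 3701 CPM in Lama4-/- replicates 1, 2 and 3 and at 8790, 10051 and 3866 CPM in wild type replicates 1, 2 and 3. Of 9 stroma markers, 8 had a lower fitted value in Lama4-/- MPCs, as did 52.0% of all tested genes. An unadjusted edgeR p under 0.05 with a lower value was found for 6 of the 9 and for 8.34% of all tested genes. None of the 9 passed the adjusted threshold. Their median log2 fold change was -0.94, or -0.13 with the trend over transcript length removed. In bulk RNA, fewer cells of a type and less RNA per cell cannot be told apart.

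None of the 8 complement genes passed edgeR's quasi-likelihood test of Lama4-/- against wild type MPCs at an adjusted p of 0.05, a threshold that 0.00691% of the 14465 tested genes passed, namely Lama4 alone. C4b came nearest, with a mean in Lama4-/- MPCs 0.512 times that in wild type MPCs and no overlap between the groups, which 22.3% of tested genes also showed in 1 direction or the other. The other secreted members (C1ra, C1s1, Serping1, C3 and Cfb) had lower means in Lama4-/- MPCs, at 0.516 to 0.789 times the wild type mean. Both membrane regulators, Cd55 and Cd59a, had higher means in Lama4-/- MPCs. The median log2 fold change over the 8 genes was -0.37, against -0.04 over all tested genes.

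**Figure D1:**
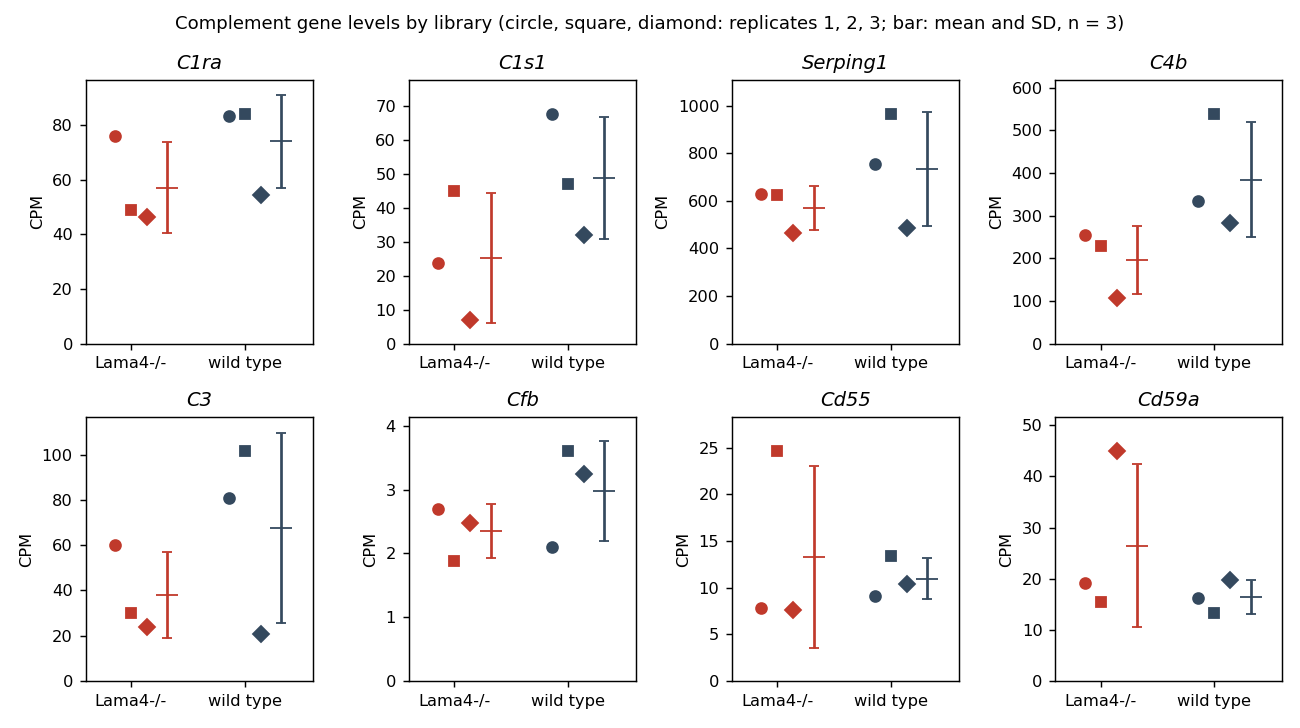
Level of each of the 8 complement genes in CPM (linear axis from 0) in the 3 Lama4-/- libraries and the 3 wild type libraries, with each point a library and each bar a group mean with its SD (n = 3). Among the 8 panels, C4b alone has every Lama4-/- point below every wild type point.

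Promoter sequences from RefSeq (build GRCm38.p6) were found for 5 of the 8 genes, C1ra, C1s1, C3, Cd55 and Cd59a. Serping1, C4b and Cfb are named only. The windows printed are those of the C1 proteases, which lie side by side, and of C3, the component at which the arms meet, because these hold repeated matches to a binding form of the C/EBP factors that drive acute-phase genes in liver. Each runs 5′ to 3′ on the gene's strand over 250 bases before and 50 after the annotated start. Capitals mark matches to TTNNGNAA, searched on both strands. The C1ra window lies at chr6:124512371-124512670 on the plus strand, the C1s1 window at chr6:124542310-124542609 on the minus strand, and the C3 window at chr17:57228087-57228386 on the minus strand. The C1ra window was set on a start at chr6:124512621. The C1ra gene position given below begins earlier, at chr6:124512405, which is inside the window and before all of its capitals.

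C1ra: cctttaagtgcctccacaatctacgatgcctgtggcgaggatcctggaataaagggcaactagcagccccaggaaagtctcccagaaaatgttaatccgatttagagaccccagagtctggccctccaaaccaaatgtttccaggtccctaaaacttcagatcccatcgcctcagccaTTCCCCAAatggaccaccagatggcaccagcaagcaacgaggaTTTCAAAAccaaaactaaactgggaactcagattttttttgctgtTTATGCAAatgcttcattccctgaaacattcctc

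C1s1: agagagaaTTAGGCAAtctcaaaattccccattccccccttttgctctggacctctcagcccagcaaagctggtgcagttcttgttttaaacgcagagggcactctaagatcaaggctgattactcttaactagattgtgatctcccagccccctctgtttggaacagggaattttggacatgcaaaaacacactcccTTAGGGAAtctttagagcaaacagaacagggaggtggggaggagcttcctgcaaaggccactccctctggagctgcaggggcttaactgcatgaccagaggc

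C3: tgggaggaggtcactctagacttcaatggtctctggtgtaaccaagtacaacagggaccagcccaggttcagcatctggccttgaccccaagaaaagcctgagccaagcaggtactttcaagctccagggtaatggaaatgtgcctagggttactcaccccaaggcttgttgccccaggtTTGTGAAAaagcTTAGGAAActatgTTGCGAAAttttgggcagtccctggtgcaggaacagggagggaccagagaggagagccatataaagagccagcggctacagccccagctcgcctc

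The C3 window held 3 matches, which begin 70, 58 and 45 bases before the start site. The C1ra window held 3 as well, and the C1s1 window held 2. The Cd55 and Cd59a windows held 0. Of 32851 RefSeq promoter windows of 300 bases, 40.7% held at least 1 such match, 13.6% at least 2 and 3.60% at least 3. No match overlapped one of the other forms searched, which were GAS (TTCNNNGAA, the STAT form, in 8.30% of windows), ISRE (GAAANNGAAA, the interferon form, in 3.44%) and an NF-kB form (GGGNNNNNCC, in 50.8%). C1ra held 1 GAS match, Cd59a held 1 ISRE match, and NF-kB matches numbered 1 in C1s1, 4 in C3, 4 in Cd55 and 2 in Cd59a. The NF-kB matches that begin at bases 54 and 55 of the C3 window overlap each other, as do those at bases 234 and 235 of the Cd55 window. A match describes the letters of a window and does not show that a factor binds there.

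Levels of different genes were compared per kilobase of the longest annotated transcript. Serping1, which encodes C1 inhibitor, led at 323 ± 52.9 CPM per kb in Lama4-/- MPCs and 415 ± 136 CPM per kb in wild type MPCs (SD, n = 3 each). It ranked 147th of 25491 genes by mean CPM. C4b followed at a mean of 54.1 CPM per kb over the 6 libraries, ahead of C1ra at 22.01, C1s1 at 12.6, Cd59a at 11.9, C3 at 10.3, Cd55 at 3.87 and Cfb at 0.968 CPM per kb.

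In this order of levels, Serping1 stood above C4b and Cd55 above Cfb with no overlap between their libraries. C4b and C1ra overlapped in range, although C4b was higher within each of the 6 libraries. The neighbours C1ra, C1s1, Cd59a, C3 and Cd55 overlapped each with the next, and C1s1 exceeded Cd59a in 3 of 6 libraries. Over all annotated exons in place of the longest transcript, C1s1 and Cd59a exchanged places and the other 6 kept theirs.

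**Figure D2:**
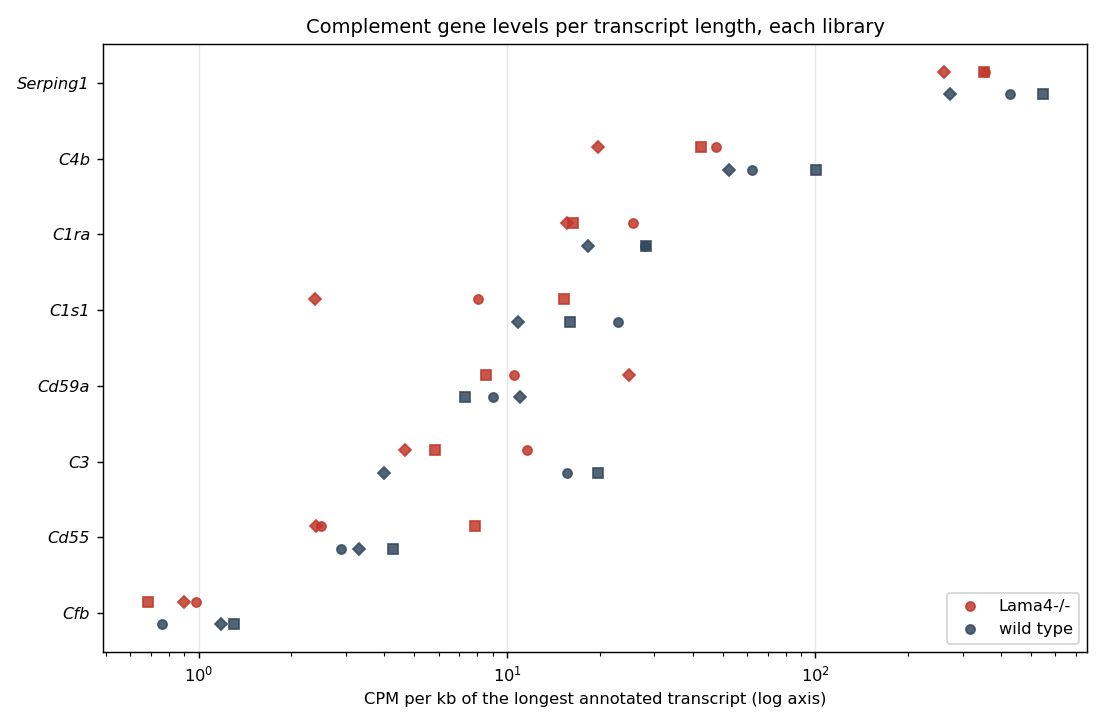
Level of each complement gene in CPM per kb of its longest transcript (log axis), ordered by mean, with each point a library of Lama4-/- or wild type MPCs. Serping1 lies above all the others in every library and Cfb below all the others.

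C1ra and C1s1 encode the proteases C1r and C1s. They lie end to end on chromosome 6 (GRCm38), C1ra at chr6:124512405-124523443 on the plus strand and C1s1 at chr6:124530345-124542359 on the minus strand, with 6901 bases between them. C1ra was measured at 76.2, 48.8 and 46.5 CPM in Lama4-/- replicates 1, 2 and 3, against 83.5, 84.1 and 54.5 CPM in wild type replicates 1, 2 and 3. Wild type replicate 3 stood below Lama4-/- replicate 1, so the groups overlapped. The log2 fold change of C1ra was -0.37 ± 0.29 (SE), with an edgeR adjusted p of 0.656.

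C1s1 varied more than its partner. Its levels were 23.6, 45.1 and 7.04 CPM in Lama4-/- replicates 1, 2 and 3, against 67.7, 47.1 and 31.9 CPM in wild type replicates 1, 2 and 3. Lama4-/- replicate 3 was far below the other libraries and Lama4-/- replicate 2 lay within the wild type range. C1s1 had a log2 fold change of -0.95 ± 0.62 (SE) and an edgeR adjusted p of 0.584. The value was -0.51 without Lama4-/- replicate 3 and -1.67 without Lama4-/- replicate 2. Per kilobase, C1ra exceeded C1s1 by 3.19, 1.07 and 6.53 times in Lama4-/- replicates 1, 2 and 3 and by 1.22, 1.76 and 1.69 times in wild type replicates 1, 2 and 3, ratios whose groups overlapped.

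Both proteases have close copies, which bears on their counts. Of the 75-base stretches of the longest C1ra transcript, as long as a read, 40.1% also occur in C1rb, and 14.7% of those of C1s1 occur in C1s2. C1s2 had 1 count in all 6 libraries, and C1rb was not analysed here. A further 13.4% of the C1s1 stretches lie in the antisense gene Gm16567, and the kit does not mark strand. How reads matching more than 1 gene were counted is not given in the sources used here.

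Serping1, at chr2:84765387-84775444 on the minus strand, encodes the serpin that inactivates C1r and C1s. Its levels were 627, 623 and 463 CPM in Lama4-/- replicates 1, 2 and 3, against 754, 964 and 484 CPM in wild type replicates 1, 2 and 3. Replicate 3 was the lowest library of either genotype, and wild type replicate 3 stood below Lama4-/- replicates 1 and 2. Serping1 had a log2 fold change of -0.36 ± 0.28 (SE) with an edgeR adjusted p of 0.651, and it was -0.12 without wild type replicate 2. With the length trend removed it was -0.62, with an unadjusted edgeR p of 0.0510, and tested genes of like length had a median log2 fold change of 0.27. No 75-base stretch of Serping1 occurred in another gene's transcripts.

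The ratio of the inhibitor to its target proteases overlapped between genotypes. Serping1 divided by the sum of C1ra and C1s1, all per kilobase, was 10.5, 11.1 and 14.5 in Lama4-/- replicates 1, 2 and 3 and 8.37, 12.3 and 9.39 in wild type replicates 1, 2 and 3. Wild type replicate 2 fell among the Lama4-/- libraries in this ratio. Serping1 took 58.5%, 61.2% and 66.0% of the summed CPM of the 8 genes in Lama4-/- replicates 1, 2 and 3, against 55.97%, 54.6% and 53.4% in wild type replicates 1, 2 and 3. The groups did not overlap in this share, while 22.3% of single tested genes did not overlap in either direction. Its 95% Wilson intervals were at most 1.92 percentage points wide in a library. They cover counting error only and not the spread between libraries. The share was not corrected for the trend over transcript length. Serping1 has a transcript of 1768 bases and C4b one of 5379 bases. Tested genes of like length had median log2 fold changes of 0.27 and -0.58. With the length trend removed, Serping1 was at -0.62 and C4b at -0.44. The share was not tested between genotypes. The summed CPM of the 8 genes was 1071, 1018 and 701 in Lama4-/- replicates 1, 2 and 3 and 1348, 1765 and 906 in wild type replicates 1, 2 and 3, with wild type replicate 3 below Lama4-/- replicates 1 and 2.

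C4b encodes the mouse C4 protein, which C1s cleaves to seed the classical C3 convertase. It lies at chr17:34728380-34743882 on the minus strand. C4b was measured at 255, 229 and 106 CPM in Lama4-/- replicates 1, 2 and 3, against 334, 538 and 282 CPM in wild type replicates 1, 2 and 3. Every Lama4-/- library was below every wild type library, and Lama4-/- replicate 3 was the lowest of all. Group means were 197 ± 79.7 CPM in Lama4-/- MPCs and 385 ± 135 CPM in wild type MPCs (SD, n = 3 each).

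The log2 fold change of C4b was -0.97 ± 0.38 (SE), with an unadjusted p of 0.0368 and an adjusted p of 0.357 in edgeR's quasi-likelihood test. It ranked 1494th of 14465 tested genes by p. An unadjusted p under 0.05 with a lower Lama4-/- value was found for 1 of the 8 genes and for 8.34% of all tested genes, and with a higher value for 0 of the 8 and for 4.45% of all tested genes. The groups did not overlap, in either direction, for 1 of the 8 genes, against the 22.3% of all tested genes given above. In the authors' deposited table, C4b had a log2 fold change of -0.85 with a standard error of 0.34 and an adjusted p of 0.115, the smallest given there for these genes.

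C4b has a long transcript of 5379 bases, and tested genes of like length had a median log2 fold change of -0.58. With the trend over length removed, C4b was at -0.44 and its edgeR p was 0.258, unadjusted. Without wild type replicate 2 the log2 fold change was -0.65, and without Lama4-/- replicate 3 it was -0.67. Its paralog C4a shares 23.5% of the 75-base stretches of C4b and was at 0 to 0.694 CPM in the 6 libraries. With the counts of paralogs summed, C4b stayed at -0.97.

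C3 encodes the protein whose cleavage product coats surfaces and completes every convertase that leads to C5. The gene lies at chr17:57203970-57228136 on the minus strand. Its levels were 59.8, 30.1 and 23.96 CPM in Lama4-/- replicates 1, 2 and 3, against 80.6, 101 and 20.5 CPM in wild type replicates 1, 2 and 3. Wild type replicate 3 was the lowest of the 6 libraries, while wild type replicates 1 and 2 were the highest. The log2 fold change was -0.83 ± 0.60 (SE) with an edgeR adjusted p of 0.629.

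Single libraries moved the C3 value widely. It was -0.41 without wild type replicate 2 and -1.25 without wild type replicate 3, where the unadjusted edgeR p was 0.0238. With the length trend removed C3 was at -0.32, its transcript of 5136 bases being in the same length class as that of C4b. No 75-base stretch of C3 occurred in another gene. Per kilobase, C4b exceeded C3 by 4.07, 7.28 and 4.22 times in Lama4-/- replicates 1, 2 and 3 and by 3.96, 5.07 and 13.1 times in wild type replicates 1, 2 and 3.

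Cfb encodes factor B, the protease of the alternative pathway convertase, and lies at chr17:34856374-34862518 on the minus strand, 112491 bases from C4b. It was counted only 45, 25 and 34 times in Lama4-/- replicates 1, 2 and 3 and 28, 21 and 42 times in wild type replicates 1, 2 and 3. These counts correspond to 2.70, 1.88 and 2.47 CPM in Lama4-/- MPCs and 2.09, 3.60 and 3.24 CPM in wild type MPCs. The groups overlapped, and the log2 fold change of -0.34 ± 0.81 (SE) spans -1.96 to 1.28 over 2 standard errors either side, with an edgeR adjusted p of 0.912. The annotated gene Gm20547, not analysed here, covers 79.5% of the exon bases of Cfb on the same strand and 42.8% of those of C2, so the level of Cfb depends on how shared reads were counted.

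The membrane regulators had higher means in Lama4-/- MPCs, each with a single high Lama4-/- library. Cd55 encodes decay-accelerating factor, which takes convertases apart on the cell's own surface, and lies at chr1:130439027-130462744 on the minus strand. It was measured at 7.80, 24.6 and 7.55 CPM in Lama4-/- replicates 1, 2 and 3, against 9.05, 13.4 and 10.4 CPM in wild type replicates 1, 2 and 3. Lama4-/- replicate 2 was the highest of the 6 libraries and the other two Lama4-/- libraries were the lowest. Cd55 had a log2 fold change of 0.29 ± 0.57 (SE) with an edgeR adjusted p of 0.886, and it turned to -0.51 without Lama4-/- replicate 2. Cd55b, which shares 7.55% of the 75-base stretches of Cd55, was not analysed here.

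Cd59a encodes the protein that blocks insertion of the terminal pore, and lies at chr2:104095801-104115354 on the plus strand. Its levels were 19.1, 15.5 and 44.9 CPM in Lama4-/- replicates 1, 2 and 3, against 16.3, 13.2 and 19.8 CPM in wild type replicates 1, 2 and 3. Lama4-/- replicate 3 stood above the other 5 libraries, which lay close together. The log2 fold change was 0.68 ± 0.46 (SE), with an edgeR adjusted p of 0.599, 0.07 without Lama4-/- replicate 3 and 0.43 with the length trend removed. The paralog Cd59b, which shares 1.73% of the stretches of Cd59a, was at 0.856 to 3.81 CPM.

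**Figure D3:**
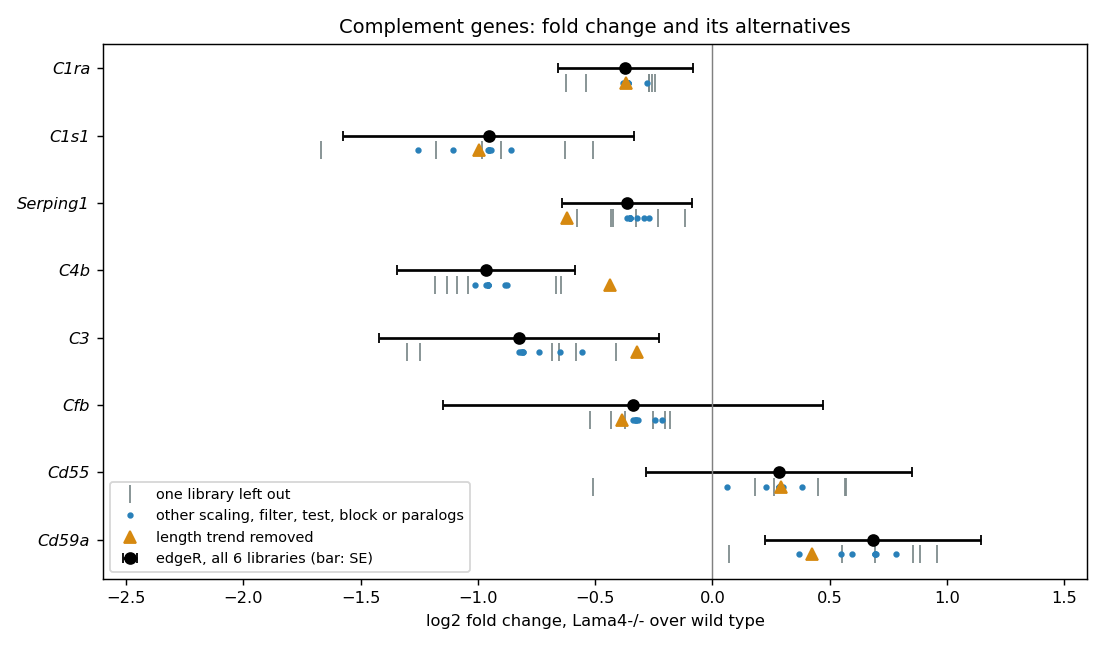
log2 fold change of Lama4-/- over wild type MPCs for each of the 8 complement genes, as edgeR's value over all 6 libraries with a bar of 1 standard error either side (black), values with 1 library left out (ticks), values under other settings (blue dots) and with the length trend removed (triangles). C4b and C3 move toward 0 with the length trend removed, to -0.44 and -0.32, as does Cd59a, to 0.43, while Serping1 moves away from 0, to -0.62, and Cd55 alone has a value on the other side of 0.

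Across the 8 genes, 6 log2 fold changes were negative and 2 positive, while 52.0% of all tested genes were negative. Lama4-/- replicate 3 held the lowest value of 5 genes (C1ra, C1s1, Serping1, C4b and Cd55) and also the highest value of Cd59a. Wild type replicate 2, the shallowest library, held the highest value of 5 genes (C1ra, Serping1, C4b, C3 and Cfb). With the length trend removed, the median over the 8 genes was -0.38, against 0.02 over all tested genes. DESeq2 also called 0 of the 8 genes, while it called 2.92% of the 25358 genes it gave a p.

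The profile of C3 over the 6 libraries was compared with that of every tested gene of at least 5 CPM on average, 10648 in all, by the root mean square difference of centred log2 CPM. Slc12a7, Fbxo38, Ctbs, Mier3 and Ttc9c were the 5 most alike, at differences of 0.12, 0.25, 0.30, 0.32 and 0.32. Slc12a7, a potassium and chloride cotransporter, was at 32.9, 13.9 and 10.2 CPM in Lama4-/- replicates 1, 2 and 3 and at 40.9, 48.6 and 10.9 CPM in wild type replicates 1, 2 and 3. Among the complement genes, C1ra ranked 108th, Serping1 113th and C4b 203rd in likeness to C3. C1s1 ranked 3233rd, Cd55 6787th and Cd59a 9204th, and Cfb was under the level minimum.

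The other complement genes were read from a list of 48, of which 38 were in the table and 24 passed the filter on low counts. Of the 24, 12 were lower and 12 higher in Lama4-/- MPCs, with a median of -0.01, and 0 passed the adjusted threshold. The median over the 24 changed sign with the length trend removed, to 0.29. A minimum of 5 CPM in 3 libraries kept 10 of the 24, and the median of those 10 was -0.24. An unadjusted p under 0.05 was found for 1 gene, Csmd1, which encodes a very large membrane protein with complement control domains. Csmd1 was at 0.960, 3.01 and 0.436 CPM in Lama4-/- replicates 1, 2 and 3 and at 17.1, 9.25 and 9.03 CPM in wild type replicates 1, 2 and 3. Its transcript is 14182 bases long, in the longest decile of genes, and its edgeR adjusted p was 0.252.

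Among the other soluble regulators, Clu, clusterin, a secreted chaperone that binds the terminal complex, was at 1125, 1943 and 862 CPM in Lama4-/- replicates 1, 2 and 3 and at 1150.4, 1358 and 1559 CPM in wild type replicates 1, 2 and 3, groups that overlapped. Per kilobase, Clu averaged 736 CPM per kb over the 6 libraries, above the mean of Serping1. Vtn, vitronectin, was at 7.80, 4.66 and 0 CPM in Lama4-/- replicates 1, 2 and 3 and at 3.14, 1.71 and 0 CPM in wild type replicates 1, 2 and 3.

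Among recognition genes and early proteases, 5 of 9 tested were lower and 4 higher. Colec12, a membrane collectin, led at 218, 274 and 183 CPM in Lama4-/- replicates 1, 2 and 3 and 244, 399.7 and 297 CPM in wild type replicates 1, 2 and 3. C2, the partner of C4 in the classical convertase, was at 3.32, 3.42 and 2.97 CPM per kb in Lama4-/- replicates 1, 2 and 3 and 6.06, 6.48 and 1.08 CPM per kb in wild type replicates 1, 2 and 3. As with C3, wild type replicate 3 was the lowest library for C2 and the other two wild type libraries were the highest.

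C1q, the recognition part of C1, is known as a product of macrophages. C1qb was at 3.60, 12.4 and 7.04 CPM in Lama4-/- replicates 1, 2 and 3 and at 3.44, 2.57 and 1.77 CPM in wild type replicates 1, 2 and 3. Every Lama4-/- library exceeded every wild type library for C1qa, C1qb and C1qc, with edgeR adjusted p-values of 0.442, 0.421 and 0.592. Over the 24 tested genes of the list the groups did not overlap for 6, 4 of them higher and 2 lower in Lama4-/- MPCs, while 22.3% of all tested genes did not overlap. The 9 macrophage markers, which include the C1q chains, summed to 18.5 to 39.9 CPM in Lama4-/- MPCs and 11.6 to 27.8 CPM in wild type MPCs. These sums overlapped between genotypes, and of the 5 markers tested 4 had a higher and 1 a lower fitted value in Lama4-/- MPCs, with a median log2 fold change of 1.68. The macrophage genes Mrc1, Fcgr1 and Cd5l were at 0 in all wild type libraries and at 0 to 2.03 CPM in Lama4-/- libraries, and Adgre1 was at 0 to 0.150 CPM in Lama4-/- MPCs and 0.0748 to 8.18 CPM in wild type MPCs. Cd68, the most abundant macrophage marker, was at 3.96, 11.7 and 4.50 CPM in Lama4-/- replicates 1, 2 and 3 and at 7.48, 4.62 and 15.2 CPM in wild type replicates 1, 2 and 3. Csf1r, the receptor for macrophage colony-stimulating factor, was at 4.74, 0.226 and 6.97 CPM in Lama4-/- replicates 1, 2 and 3 and at 1.87, 1.88 and 0 CPM in wild type replicates 1, 2 and 3, so both Cd68 and Csf1r overlapped between genotypes. The part of macrophages in the C1q values was not tested.

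The alternative pathway, the terminal components and the receptors were weakly counted. Cfp, properdin, was higher in every Lama4-/- library at 6.42, 7.07 and 10.5 CPM, against 4.34, 3.94 and 2.47 CPM in wild type replicates 1, 2 and 3, with an edgeR adjusted p of 0.474. Cfd, factor D, was counted in 3 of the 6 libraries. Of the terminal components, C6 and C8g were tested and both had higher means in Lama4-/- MPCs, with edgeR adjusted p-values of 0.903 and 0.848, while Hc, which encodes C5, had 4 counts in all. The membrane regulators held a better counted gene. Cr1l, which encodes the mouse membrane regulator Crry, was at 53.8, 62.5 and 59.0 CPM in Lama4-/- replicates 1, 2 and 3 and 53.1, 41.8 and 76.0 CPM in wild type replicates 1, 2 and 3, and its mean of 14.95 CPM per kb exceeded those of Cd55 and Cd59a. Among receptors, C5ar1 and Itgb2 averaged under 6 CPM in either genotype. Cd93 was counted 0 times in each Lama4-/- library and 64, 1 and 30 times in wild type replicates 1, 2 and 3. It did not pass the filter on low counts and was not tested.

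Transcription factors and cytokine receptors known to act on complement genes were read as a list of 19, all tested. Of these, 13 were lower and 6 higher in Lama4-/- MPCs, with a median of -0.14, and 0 passed the adjusted threshold. Cebpb, which encodes an acute-phase C/EBP factor, had the largest value: 134, 300 and 495 CPM in Lama4-/- replicates 1, 2 and 3, against 23.9, 22.9 and 11.96 CPM in wild type replicates 1, 2 and 3. Every Lama4-/- library stood above every wild type library, with a log2 fold change of 3.99 ± 0.53 (SE), an unadjusted p of 0.000105 and an edgeR adjusted p of 0.192. Cebpa and Cebpd had log2 fold changes of -0.17 and -0.05.

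Of the cytokine receptors in the list, some were lower and some higher. Il1r1 (interleukin 1), Il6ra and Il6st (the chains of the interleukin 6 receptor) and Osmr (oncostatin M), together with Nr3c1, the glucocorticoid receptor, were lower in every Lama4-/- library, with log2 fold changes of -1.39, -1.16, -0.91, -0.99 and -1.29 and edgeR adjusted p-values of 0.237 to 0.373. The transcripts of these genes are 5491 to 8678 bases long, and tested genes in length deciles 9 and 10 had medians of -0.58 and -0.92. Ifngr1 and Ifngr2, the chains of the interferon gamma receptor, had log2 fold changes of 0.28 and 0.30, and Tnfrsf1a, a receptor for tumour necrosis factor, had -0.08, with edgeR adjusted p-values of 0.667, 0.588 and 0.927. Ifngr2 was higher in every Lama4-/- library. Over the list of 19, the groups did not overlap for 5 lower and 2 higher genes, while 22.3% of all tested genes did not overlap. Il6st was at 147, 108 and 62.5 CPM in Lama4-/- replicates 1, 2 and 3, against 168, 237 and 191 CPM in wild type replicates 1, 2 and 3. The 3 most abundant genes of the list, Nfkbia, Stat3 and Irf1, had log2 fold changes of 0.42, -0.46 and -0.01, with edgeR adjusted p-values of 0.489, 0.512 and 0.987. With the length trend removed the median of the list was 0.01.

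**Figure D4:**
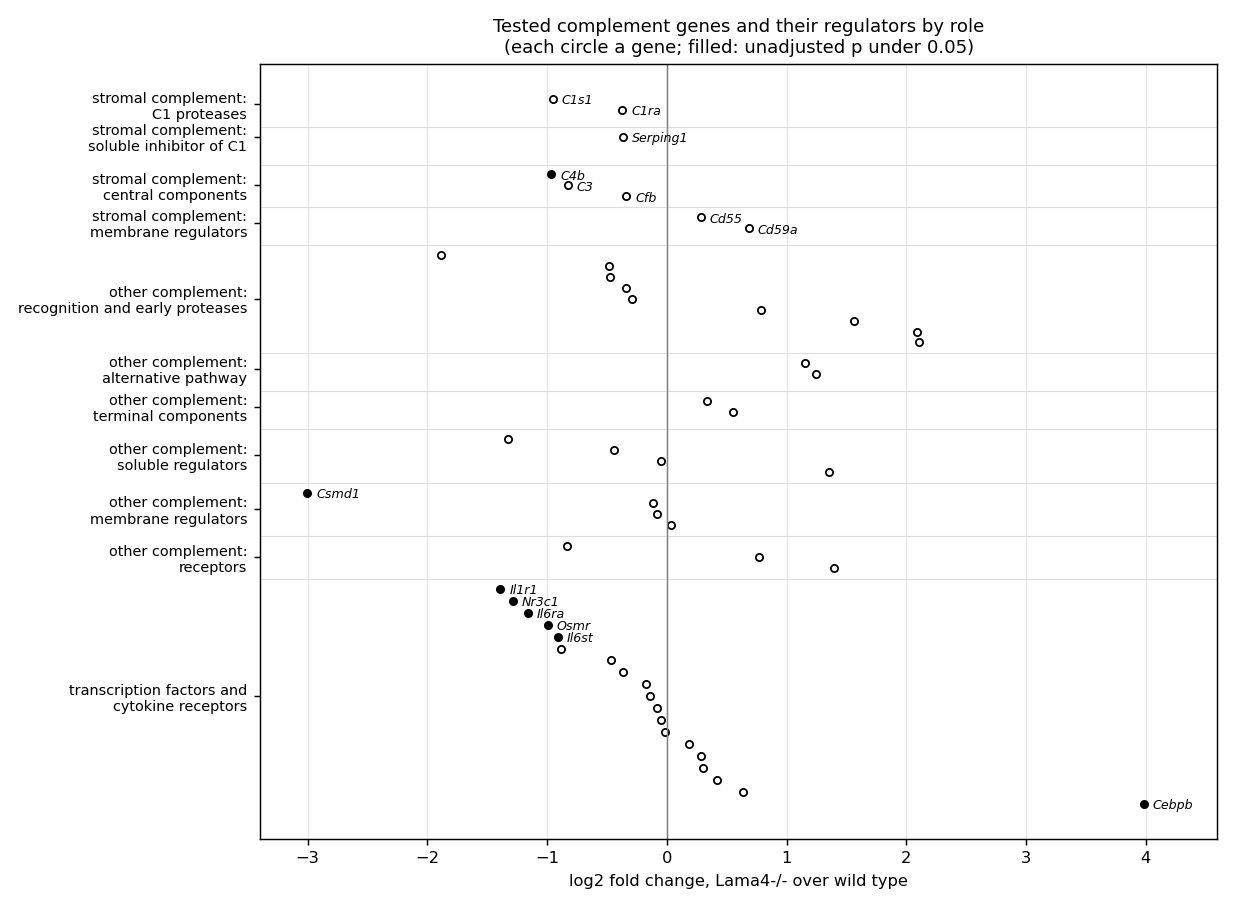
log2 fold change of Lama4-/- over wild type MPCs for the tested complement genes and for the transcription factors and cytokine receptors, in groups by role, with filled circles for an unadjusted p under 0.05. Filled circles mark C4b, Csmd1, Cebpb and 5 genes lower in Lama4-/- MPCs, and none of them passed the adjusted threshold.

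Markers of other cells differed between the libraries beside these values. The 9 neutrophil and monocyte markers summed to 754, 690 and 111 CPM in Lama4-/- replicates 1, 2 and 3 and to 109, 34.8 and 117 CPM in wild type replicates 1, 2 and 3. All 9 were fitted higher in Lama4-/- MPCs, as were 48.0% of all tested genes, and S100a9 and S100a8 were the most abundant. The 6 red cell markers, led by Hbb-bs and Hba-a1, summed to 3423, 1349 and 3864 CPM in Lama4-/- replicates 1, 2 and 3 and to 252, 625 and 1665 CPM in wild type replicates 1, 2 and 3. Both sums were highest in Lama4-/- libraries, and for each of them wild type replicate 3 stood above 1 Lama4-/- library. Endothelial markers, led by Pecam1 and Kdr, summed to 0.120 to 0.752 CPM in Lama4-/- MPCs and 4.34 to 5.25 CPM in wild type MPCs. These sums did not overlap, as for 22.3% of single tested genes in either direction, and they rest on few counts. Of the 4 endothelial markers found, 1 passed the filter on low counts, Pecam1, with an edgeR adjusted p of 0.473. Pecam1 was counted 1, 10 and 2 times in Lama4-/- replicates 1, 2 and 3 and 23, 12 and 18 times in wild type replicates 1, 2 and 3. Megakaryocyte markers, led by Ppbp and Itga2b, summed to 4.74 to 16.1 CPM in Lama4-/- MPCs and 9.42 to 21.2 CPM in wild type MPCs, and the B cell markers Cd79a and Vpreb1 to at most 2.01 CPM. Ptprc, which encodes the CD45 excluded by the sort, was at 0, 2.18 and 0 CPM in Lama4-/- replicates 1, 2 and 3 and at 0, 1.37 and 4.09 CPM in wild type replicates 1, 2 and 3. Transcripts of Cd44, whose protein the sort also excluded, were counted in every library, at 53.2 to 82.0 CPM in Lama4-/- MPCs and 70.6 to 152 CPM in wild type MPCs. So were those of Ly6a, which encodes the excluded SCA1, at 8.64 to 11.8 CPM in Lama4-/- MPCs and 8.90 to 16.3 CPM in wild type MPCs. Itgav, which encodes the CD51 that the sort required, was at 44.5 to 73.0 CPM in Lama4-/- MPCs and 95.9 to 139 CPM in wild type MPCs. Its groups did not overlap, as for 22.3% of tested genes in either direction. Itgav had a log2 fold change of -0.94 and an edgeR adjusted p of 0.245. Its transcript is 7054 bases long, and tested genes in length deciles 9 and 10 had medians of -0.58 and -0.92. The part of these cells and gates in the complement values was not tested.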

How the data were processed

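Per the labels' protocols, RNA of sorted MPCs was amplified with the SMART-Seq v4 low input kit, which does not mark strand, and Nextera XT libraries gave single-end reads of 75 bases. The submitters' processing notes list STAR 2.6.1d, featureCounts and DESeq2, with FastQC 0.11.8 and MultiQC 1.7, and the build GRCm38 (mm10). Their settings are not known here. In the single table that the authors deposited, the headings of the per-library blocks are exchanged. Its whole-number block was used as the deposited counts. The block headed raw is a deposited signal that multiplies those counts by 1 constant in each library, and it entered no test. Per the file headers, other columns hold the authors' DESeq2 comparison: a log2 fold change with its standard error, a Wald score, the p-value and the adjusted p-value, which is NA for Cfb and was left so.

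Counts were scaled by TMM and filtered with filterByExpr, which kept 14465 genes. Lama4-/- was compared with wild type, 3 libraries against 3, by edgeR 4.0.16 (R 4.3.3) with its quasi-likelihood F test in robust form, with p-values adjusted by Benjamini-Hochberg over all 14465 genes and a threshold of 0.05. CPM are counts over the TMM-scaled total. Lengths, positions and shared 75-base stretches came from GENCODE transcripts of GRCm38, where 25458 gene IDs (99.9%) had a length. Libraries of 1 genotype differed by more than sampling noise, with a chi-square per gene of at least 46.4. Tested on simulated counts of 13147 genes for this comparison, the fit called 41 of 100 genes changed 4-fold, 66 of 100 changed 16-fold and 8 of 12947 unchanged genes.

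The complement genes, lists and tests were chosen with earlier results of these data known. Named genes are the 8 complement genes and their paralogs, Lama4, the 3 most abundant other complement genes of each role, the 3 most abundant transcription factors or receptors, any listed gene of these kinds with an unadjusted p under 0.05, the 5 genes most like C3 (log2 of CPM plus 0.5) and the 2 most abundant markers of each other cell type. 1 gene that this rule takes is not reported here. C1qa, C1qc, Cebpa, Cebpd, Mrc1, Fcgr1, Cd5l, Adgre1, Csf1r, Ifngr1, Ifngr2, Tnfrsf1a, Cxcl12, Cd44, Ly6a, Itgav and Ptprc were named after their values were seen. Alternatives were other scalings (DESeq2 1.42.0 size factors, upper quartile), other filters on low counts, a block on the replicate number, a lowess correction for transcript length, DESeq2, limma 3.58.1 voom, summed paralogs, all annotated exons as length, and leaving out each library.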

Additional observations from a re-analysis of the deposited data

How the results depend on the processing

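The count of the 8 complement genes past the adjusted threshold was 0 under every alternative run, with 0 to 3 of them at an unadjusted p under 0.05. The 3 arose without wild type replicate 3, where 1118 of 14465 tested genes had such a p. With the replicate number as a block it was 2 of the 8, beside 1930 of 14465 tested genes. Over all genes the edgeR count of 1 became 0 with upper-quartile scaling, 0 with the length trend removed, 0 with limma voom, 12 without a filter on low counts and 741 with DESeq2, and leaving out 1 library gave 0 to 1. Where that count was 0, an unadjusted p under 0.05 was found for 1955 genes with upper-quartile scaling, 1173 with the length trend removed, 2302 with limma voom and 1118 to 2203 with 1 library left out; DESeq2 had 2816. Same-numbered libraries correlated at 0.04, 0.13 and 0.05 in their deviations, above all differently numbered libraries, at -0.08 to 0.007. No label says that the numbers mark pairs, and they were not taken as pairs. With the replicate number as a block the count was 0 (1930 genes at an unadjusted p under 0.05). C4b and C1s1 then had unadjusted edgeR p-values of 0.00804 and 0.0434, against 0.0368 and 0.165 without the block. Of 119 alternative values of single complement genes, 118 kept their direction and their side of the adjusted threshold, and 1 turned: Cd55 without Lama4-/- replicate 2, at -0.51. The alternative of summed paralogs added no counts to C1ra, Serping1, C3, Cfb or Cd55, so it was no check of their values. Leaving out 1 library gave ranges of -0.62 to -0.24 for C1ra, -1.67 to -0.51 for C1s1, -0.58 to -0.12 for Serping1, -1.18 to -0.65 for C4b, -1.30 to -0.41 for C3, -0.52 to -0.18 for Cfb, -0.51 to 0.57 for Cd55 and 0.07 to 0.96 for Cd59a. The order of levels per length kept 6 of 8 places over all annotated exons. Cfb has no value under the minimum of 5 CPM in 3 libraries. The cause was not tested.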
